A study of Mus musculus with 22 samples.

Results

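Vesicle trafficking genes were taken as protein-coding mouse genes whose symbols begin with Rab and a digit, Rabgap, Rabep, Tbc1d, Vps, Snx, Sec and a digit, Exoc, or Ap1, Ap2 or Ap3 followed by a subunit letter (b, d, g, m or s). An exon event belonged to the set when its whole span, from the upstream to the downstream flanking exon, lay inside the mm10 span of such a gene. The 7 deposited summaries together listed 10873 skipped-exon events, and 178 of them, in 102 genes, met this rule. Of the 178 events, 108 were listed in all 7 summaries, 28 in 2 and 7 in only 1. The gene table held 228 protein-coding genes with a matching symbol, and those without a listed event were not measured here.

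The RNA came from 2 lines of mouse embryonic stem (ES) cells grown without feeder cells on gelatin with LIF. WT cells were R1 cells, and TKO cells lacked the DNA methyltransferases Dnmt1, Dnmt3a and Dnmt3b. Both lines were sequenced untransfected as 50-base single-end reads. WT cells were also transfected with Lipofectamine 2000 and siRNA against HP1alpha, HP1beta or HP1gamma at 90 nM, or against all 3 together at 60 nM each. TKO cells received all 3 siRNAs at 80 nM for HP1alpha, 80 nM for HP1beta and 120 nM for HP1gamma. The knock-down cells were taken 48 hours after transfection and read as 101-base paired ends. The labels name no control siRNA. Knock-down, transfection, read layout and sequencer change together in every comparison with untransfected cells and cannot be told apart. Each of the 7 RNA groups had 2 replicates, which the authors pooled before making the summaries. Every test below therefore compares 2 pooled libraries, not 2 conditions, and no value has a replicate error.

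Most proteins of these families help to move membrane and cargo between compartments. Sec23 and Sec24 proteins build the coat that buds vesicles from the endoplasmic reticulum, adaptor complexes select cargo for clathrin-type coats, Rab GTPases mark each compartment and recruit effectors, and tethers such as the exocyst hold a vesicle to its target. Vps proteins and sorting nexins retrieve or degrade cargo at endosomes, and TBC-domain proteins switch Rabs off. HP1 proteins bind histone marks of silent chromatin, and DNA methylation is laid down by the enzymes that TKO cells lack; the series asks how both relate to exon choice.

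The reads over listed events summed to 25200437 to 25941844 in the untransfected libraries and 4677236 to 9750348 in the knock-down libraries. Events of trafficking genes had a median of 115.5 distinguishing reads in WT and 150 in TKO, and of 53 to 79 after knock-down. Distinguishing reads are those that fit only inclusion or only skipping of the exon. The median width of the deposited interval around a trafficking exon's level was 0.08 in WT and 0.05 in TKO, and 0.14 to 0.17 after knock-down. As a check of the labels, the event of the targeted gene, in reads per 1000000 event reads (RPM), was compared with the 2 single knock-downs of the other HP1 proteins. The ratio was 0.399 for Cbx5 (HP1alpha; exact 95% interval 0.358 to 0.444), 0.324 for Cbx1 (HP1beta; 0.314 to 0.334) and 0.634 for Cbx3 (HP1gamma; 0.548 to 0.731). In the triple knock-down the 3 ratios were 0.522, 0.352 and 0.71 in WT cells and 0.468, 0.641 and 0.691 in TKO cells, where the divisor was again the single knock-downs of WT cells, a different line. Against untransfected cells the 3 genes differed. Cbx5 was at 113 RPM in WT and 109 in TKO, and at 43 to 56.2 in the 3 libraries that target it. Cbx1 was at 615 in WT and 507 with its own siRNA, at 659 in TKO and, higher, at 1003 in TKO cells with triple knock-down, and at 1522 and 1625 with the 2 other single siRNAs. Cbx3 was at 457 and 480 in untransfected cells and at 32.2 to 52.2 in all 5 knock-down libraries, whether targeted or not. The TKO to WT ratio was 0.45 for Dnmt3a and 0.157 for Dnmt3b, no event of Dnmt1 was listed, and whether these events lie in the deleted parts was not tested. All 6 ES cell markers with an event were listed in every library, at a summed 2439 to 3326 RPM. Of fibroblast or feeder markers only Fn1 had an event (289 to 433 RPM). Of the markers of differentiated lineages Sox17 and Pax6 had events, at a sum of 5.32 RPM in WT, 35.6 in TKO and 42 in TKO with triple knock-down, and neither was listed in the 4 knock-down libraries of WT cells. Their part in the results below was not tested.

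By role, the 178 events comprised 37 in 24 genes with Rab-numbered symbols, 30 in 13 Rab regulators, 36 in 20 Vps genes, 20 in 14 sorting nexins, 25 in 15 Sec genes, 11 in 5 exocyst genes and 19 in 11 adaptor genes. The Rab-numbered symbols include partners of the GTPases, such as Rab11fip5, an effector that binds Rab11 on recycling endosomes, and Rab3ip, an exchange factor that activates Rab8. The strand of the gene was known for 138 events, and 3 of these lay on the strand opposite to the trafficking gene. They were the events in Tbc1d22b, in Vps26b and in Sec1, which encodes a fucosyltransferase and no trafficking protein. The 3 were kept in the counts as the rule has them. Ap2m1, Ap3m1, Ap3s1 and Rab7 have pseudogenes named after them, and no source used here says how reads were shared between a gene and its copy, so values of these 4 genes are uncertain.

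The exons were of ordinary length. Their median was 101 nucleotides (nt), against 105 nt over all 10873 events, and 50% had a length divisible by 3, against 46.6% of all. In WT cells 81 of the 176 listed trafficking exons (46%) were included at a level of 0.9 or more, against 37.9% of all events. A further 48 (27.3%) were at 0.1 or less, against 24%, and 47 (26.7%) lay in between, against 38.1%. The level is the deposited estimate of the fraction of transcripts that include the exon. Exons in between were most common in exocyst genes (6 of 11) and rarest in Vps genes (4 of 36).

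Very short exons of at most 27 nt made up 13 of the 178 events (7.3%), against 4.12% of all events, and 8 of the 13 lay in adaptor genes. Exons of this size are best known from neurons. They were 21 and 9 nt long in Ap1b1 (a large subunit of AP1), 7, 8 and 9 nt in Ap1g1 (its gamma subunit), 9 nt in Ap1s2, 6 nt in Ap2m1 (the cargo-binding subunit of AP2) and 10 nt in Ap3m1. The 3 events of Ap1g1 share their skipping reads. Of the 13, 11 had a WT level of 0.1 or less (84.6%, against 61.4% of the 417 events of this size listed in WT). The other two, in Ap1s2 and in the sorting nexin Snx21, had levels of 0.41 and 0.33 with 0 distinguishing reads in WT. With reads the Ap1s2 exon stood at 0.08 to 0.17 in the knock-down libraries and the Snx21 exon at 0.04 to 0.18. The Ap1b1 exon of 9 nt had 0 inclusion reads in all 7 libraries, against 141 to 538 skipping reads.

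The first comparison set untransfected TKO cells against untransfected WT cells. Loss of the DNA methyltransferases and other differences between the lines cannot be told apart in it. No trafficking exon passed. An exon was called when its inclusion and skipping reads differed by Fisher's exact test at a Benjamini-Hochberg adjusted p of at most 0.05 over all events tested and its level differed by at least 0.1. Of 146 trafficking exons with at least 20 distinguishing reads in both libraries 0 were called, against 352 of 7695 events in all (4.57%). At an unadjusted p under 0.05 there were 10 of the 146 (6.85%), against 16.2% of all. Among exons with a WT level between 0.1 and 0.9, 0 of 34 trafficking exons and 12.2% of all 2286 were called. Levels lay within 0.05 of each other for 120 of the 146, and the median absolute difference was 0.01, against 0.02 over all events. These shares describe the list and were not tested against other lists.

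**Figure D1:**
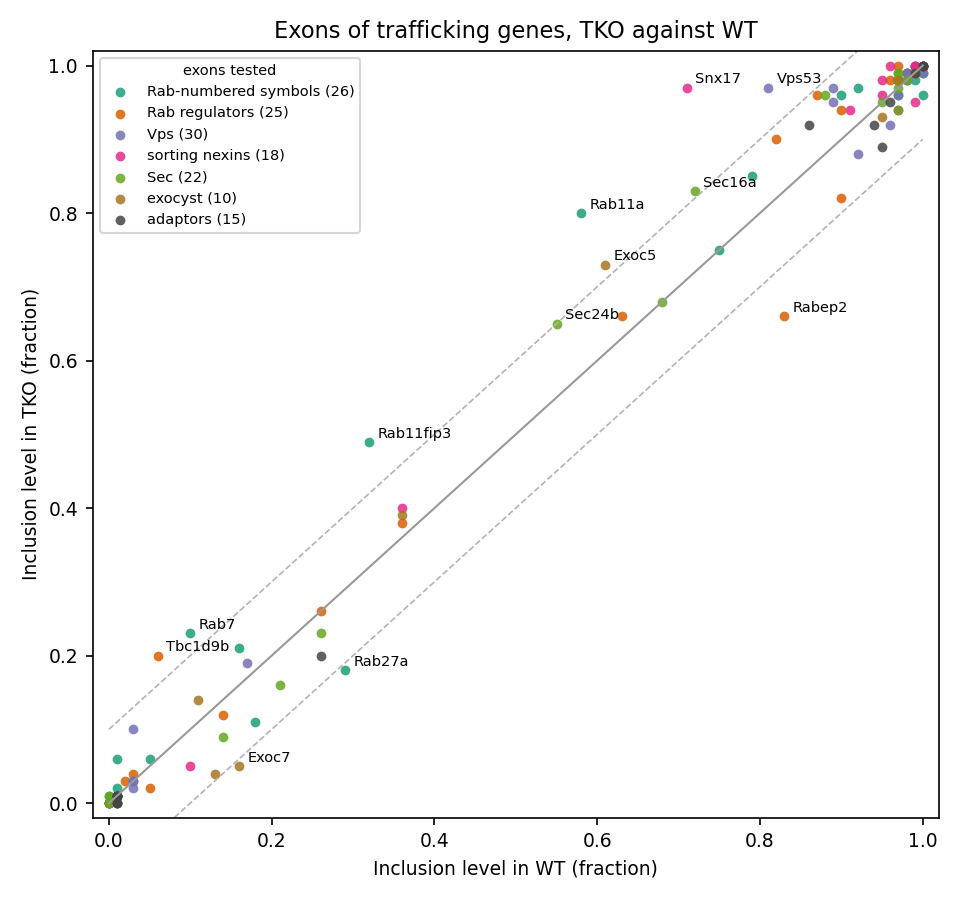
Inclusion level in TKO (vertical axis, fraction) against WT (horizontal axis, fraction) for the 146 trafficking exons tested, 1 point per exon, coloured by role. The solid line marks equal levels and the dashed lines a difference of 0.1; most exons sit in the 2 corners, and the genes of the 12 exons at 0.1 or beyond are named.

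Snx3, a sorting nexin that recruits retromer for retrieval from early endosomes, showed the smallest p of the set in TKO against WT. Its 96 nt exon (chromosome 10, 42525954 to 42526049, mm10, plus strand) had 72 skipping reads beside 2375 inclusion reads in WT, and 0 beside 2761 in TKO. The levels were 0.96 and 1.00, so the adjusted p of Fisher's exact test was 4.59e-22 while the difference of 0.04 missed the level threshold. Rab3ip went the other way. Its 96 nt exon (chromosome 10, 116928189 to 116928284) had 0 skipping reads beside 668 inclusion reads in WT, and 8 beside 456 in TKO. The levels were 1.00 and 0.96 (adjusted p = 0.0117, Fisher's exact test). These 2 were the only trafficking exons past the adjusted p alone (1.37%, against 8.94% of all events).

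In each role the median absolute difference between TKO and WT was at most 0.03. Rab GTPase exons ranged from -0.11 to 0.22, TKO minus WT, and adaptor exons from -0.06 to 0.06. Differences of 0.1 or more were seen in 12 exons (8.22%, against 15.2% of all events), and 6 of these had 0 skipping reads in both libraries. The largest was the 118 nt exon of Snx17, a sorting nexin that returns receptors to the surface, at 0.71 in WT and 0.97 in TKO with 279 and 255 inclusion reads. Rab11a, the GTPase of recycling endosomes, had a 130 nt exon at 0.58 and 0.80 with 128 and 176 inclusion reads. Vps53, a subunit of the tether that receives vesicles from endosomes at the Golgi, had a 144 nt exon at 0.81 and 0.97. None of the 3 had a skipping read in either library.

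Among exons with reads of both kinds, 0 of 60 were called, against 8.68% of 4057 events. Besides Snx3 and Rab3ip, which passed the adjusted p alone, these included Exoc7, an exocyst subunit that binds the plasma membrane. It missed both the level and the p threshold. Its 69 nt exon had 17 inclusion reads beside 74 skipping reads in WT, and 7 beside 110 in TKO, at levels of 0.13 and 0.04 (adjusted p = 0.075, Fisher's exact test). A second alternative exon of Exoc7, of 93 nt, stood at 0.11 and 0.14. Sec16a, which organises the sites where vesicles leave the endoplasmic reticulum, had a 60 nt exon at 0.72 in WT (90 inclusion, 26 skipping reads) and 0.83 in TKO (131 and 17), with an adjusted p of 0.153. Tbc1d9b had a 326 nt exon at 0.06 (4 and 24 reads) and 0.20 (11 and 15), with an adjusted p of 0.23. A p above the threshold does not show that these levels were equal. These exons were singled out after their values were seen.

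TKO and WT cells were also compared with all 3 HP1 proteins knocked down, a pair of libraries that shares none with the first. The siRNA doses differed between the lines, and so did the Cbx1 ratio given above, so genotype and siRNA dose cannot be told apart in this pair or in the test of both pairs that follows. Again 0 trafficking exons were called, here of 88 tested, against 21 of 4473 events (0.469%). At an unadjusted p under 0.05 there were 2 of the 88, against 5.3% of all events. The smallest p belonged to Ap2b1, a large subunit of the adaptor for endocytosis at the plasma membrane. Its 42 nt exon had 60 inclusion reads beside 74 skipping reads in WT, and 49 beside 109 in TKO (levels 0.33 and 0.21, adjusted p = 0.621, Fisher's exact test). In untransfected cells the same exon was at 0.26 in WT and 0.20 in TKO. The largest difference in level was that of a 195 nt exon of Tbc1d31, at 0.58 (38 and 6 reads) in WT and 0.33 (46 and 16) in TKO. Fisher's exact test gave an unadjusted p of 0.151. In untransfected cells its levels were 0.63 and 0.66. In the single knock-downs of WT cells it was at 0.34 with HP1alpha, 0.35 with HP1beta and 0.40 with HP1gamma, nearer to the TKO value than to that of WT with triple knock-down.

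Whether the TKO to WT difference itself changed between the 2 pairs was asked of the odds ratios of the 2 pairs (Zelen's exact test, calls on adjusted p alone). Of 85 trafficking exons 1 was called, against 117 of 4344 events (2.69%). An exon that lacks inclusion or skipping reads in both libraries of a pair cannot pass this test. The count therefore says little about the set. It was the Snx3 exon, with an adjusted p of 0.00239. Its skipping reads were 72 in WT and 0 in TKO without transfection, and 5 and 6 with triple knock-down, beside 513 and 1124 inclusion reads. The 3 single knock-downs held 4, 7 and 4 skipping reads beside 954, 904 and 906 inclusion reads. The WT library thus stood highest and the TKO library lowest of the 7 in skipping reads, and the deposited levels spanned only 0.95 to 1.00. Levels and reads did not rank the libraries alike. The lowest level, 0.95, was that of WT cells with triple knock-down, against 0.96 in untransfected WT cells. For 57 of the 85 exons both differences were within 0.05. For 1, the Snx17 exon of 118 nt, both reached 0.1, at 0.26 and 0.13 with 0 skipping reads in all 4 libraries.

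**Figure D2:**
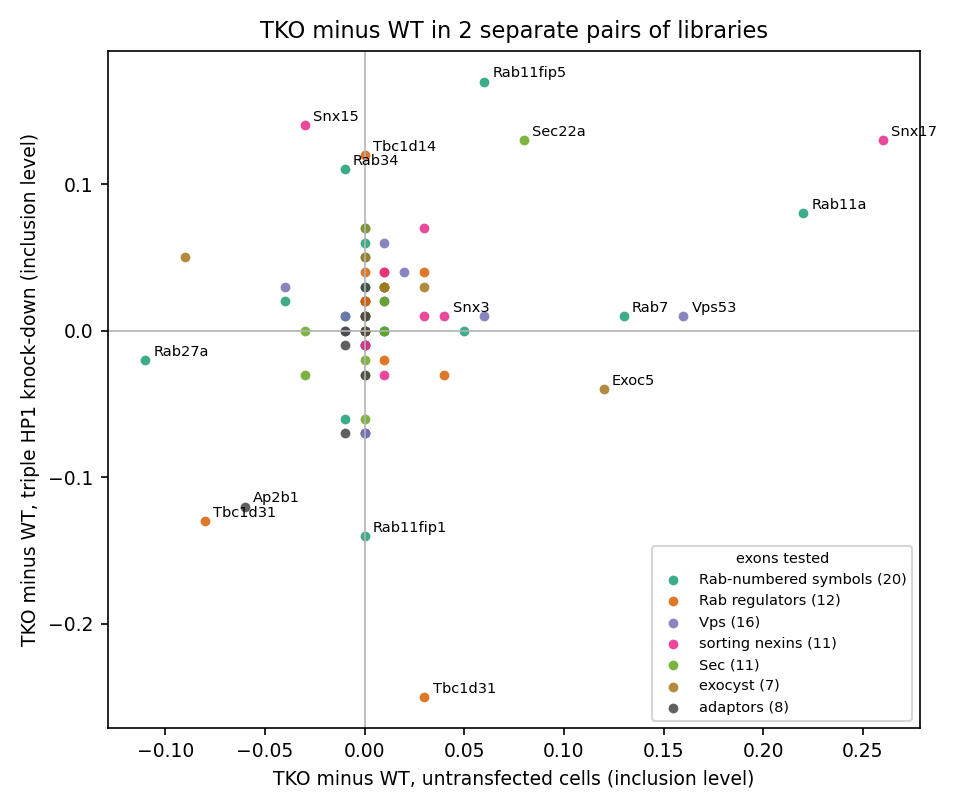
TKO minus WT inclusion level in untransfected cells (horizontal axis) and under triple HP1 knock-down (vertical axis) for the 85 trafficking exons tested in all 4 libraries, coloured by role. Points gather at 0 on both axes, and genes are named where either difference reached 0.1, with Snx3 added.

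The next 5 comparisons set each knock-down library against untransfected cells of the same line. Between 5 and 10 trafficking exons were called in each, nearly all with less inclusion in the knock-down library. With HP1alpha knock-down 7 of 109 exons were called (6.42%, against 11.8% of all 6048 events), 1 higher (against 1.64% of all) and 6 lower (against 10.2%). With HP1beta knock-down 6 of 106 were called (5.66%, against 11.8% of 5724), 1 higher (against 1.92%) and 5 lower (against 9.91%). With HP1gamma knock-down 8 of 100 were called (8%, against 11.4% of 5183), 1 higher (against 1.6%) and 7 lower (against 9.84%). With triple knock-down 5 of 88 were called (5.68%, against 11.2% of 4591), 1 higher (against 1.83%) and 4 lower (against 9.37%). In TKO cells triple knock-down gave 10 of 100 (10%, against 12.3% of 5188), 1 higher (against 1.31%) and 9 lower (against 10.9%). The 4 comparisons in WT cells share the untransfected WT library, so their calls are not separate evidence.

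**Figure D3:**
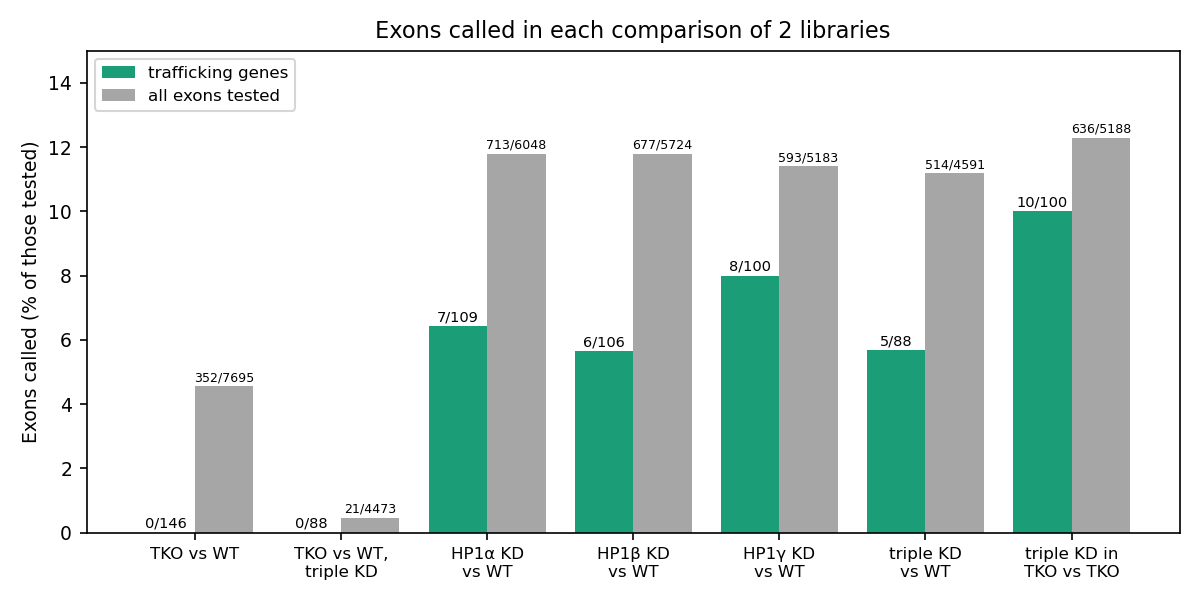
Share of exons called in each comparison of 2 libraries (vertical axis, % of those tested, from 0) for trafficking genes (green) and for all events (grey), with the counts above the bars. The trafficking share is below the share of all events in all 7 comparisons, several of which share the untransfected WT library, and the difference was not tested. Among exons with reads of both kinds, triple knock-down in TKO cells gave 19.6%, against 19.1% of all events. In the knock-down comparisons of WT cells the trafficking share stayed lower among such exons.

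The lower levels ran through the whole table. Of the 108 trafficking exons listed in all 7 libraries, 51 (47.2%) had all 5 knock-down levels below both untransfected levels, against 47.3% of all 6143 such events. For 11 (10.2%) all 5 were above both, against 9.44%. The median level difference of trafficking exons was -0.03 or -0.04 in each of these comparisons, and -0.03 or -0.04 over all events.

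Rab25, a Rab of epithelial recycling endosomes, had an exon of 147 nt (chromosome 3, 88547622 to 88547768, minus strand) that was called in all 5 comparisons. It stood at 0.16 in WT (18 inclusion and 35 skipping reads) and 0.21 in TKO (12 and 21). In the 5 knock-down libraries it stood at 0.01 or 0.02, with 0 to 3 inclusion reads beside 45 to 93 skipping reads. The untransfected and knock-down levels did not overlap, and adjusted p ran from 1.25e-06 to 0.000266 (Fisher's exact test). Sec61a2, a form of the pore through which new proteins enter the endoplasmic reticulum, behaved alike. Its 84 nt exon (chromosome 2, 5879617 to 5879700, minus strand) was at 0.26 in WT (38 and 67 reads) and 0.23 in TKO (33 and 67), and at 0.02 to 0.05 in the knock-down libraries with 0 to 3 inclusion reads. It too was called in all 5, with adjusted p from 4.94e-05 to 0.0419. That largest value, in triple knock-down, rose to 0.309 when the expected odds ratio was set from events of like exon length.

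The largest difference was in Ap3m1, the cargo-binding subunit of the adaptor for lysosome-related organelles. Its 172 nt exon (chromosome 14, 21044653 to 21044824) was at 0.95 in WT (322 and 3 reads) and 0.89 in TKO (319 and 8). It was at 0.31 with HP1alpha knock-down (39 and 8), 0.27 with HP1beta (22 and 10), 0.42 with HP1gamma (22 and 3) and 0.26 with triple knock-down (9 and 0), and was not listed in TKO cells with triple knock-down. Most distinguishing reads in these libraries were still inclusion reads, so the level fell much further than the reads shifted. Ap3m1 also has a pseudogene named after it, as given above. The 3 single knock-downs were called, with adjusted p of 6.06e-05, 4.73e-08 and 0.0341, and the triple had too few reads to be tested. With the odds ratio set by exon length the third became 0.196.

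Rab11fip5 has an unusually long alternative exon of 2019 nt (chromosome 6, 85340343 to 85342361), the longest of the set. Its level was 0.90 in WT and 0.96 in TKO, 0.49 to 0.65 in the 4 knock-down libraries of WT cells and 0.82 in TKO cells with triple knock-down. By Fisher's exact test it was called with HP1gamma knock-down (difference -0.41, adjusted p = 0.00167) and with triple knock-down in TKO cells (-0.14, adjusted p = 0.03). Both calls were lost when the odds ratio was set by exon length (0.164 and 0.5). Sec24c, a cargo-binding protein of the coat at the endoplasmic reticulum, did not keep to the split by layout. Its 69 nt exon was at 0.21 in WT and 0.16 in TKO, at 0.05 with HP1alpha, 0.03 with HP1gamma and 0.05 with triple knock-down, but at 0.24 with HP1beta (12 and 19 reads) and 0.17 in TKO cells with triple knock-down (7 and 17). By Fisher's exact test it was called with HP1alpha (adjusted p = 0.00484) and HP1gamma knock-down (0.00197).

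Rab11a held 3 called exons that differed in direction. The exons of 194 nt and 196 nt were at 0.99 or 1.00 in untransfected cells and at 0.77 to 0.90 and 0.87 to 0.93 in knock-down cells. The 194 nt exon was called in 3 comparisons, where it had 2 to 4 skipping reads, and the calls with HP1beta and HP1gamma were lost with the odds ratio set by exon length (adjusted p = 0.152 and 0.141, exact test). The 196 nt exon had 13 to 40 skipping reads in the knock-down libraries, against 0 and 4, and was called by Fisher's exact test with HP1gamma (adjusted p = 1.73e-07) and with triple knock-down in TKO cells (3.56e-13). The 130 nt exon gave the 1 higher call in each of the 4 WT comparisons, at 0.58 in WT and 0.69 to 0.72 in the knock-down libraries. Its reads went the other way, from 128 inclusion and 0 skipping reads in WT to 121 to 194 inclusion and 13 to 15 skipping reads, so the call has no single direction. The deposited intervals overlapped in all 4.

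Other called exons appeared in 1 to 3 comparisons. Rabep1, which links Rab4 and Rab5 on early endosomes, had a 129 nt exon at 0.97 and 1.00 in untransfected and 0.81 to 0.92 in knock-down cells. It was called with HP1alpha, with triple knock-down and with triple knock-down in TKO cells. The second call (adjusted p = 0.0292, Fisher's exact test) was lost where intervals had to be apart, and with the odds ratio set by exon length its adjusted p was 0.172. Rab27a, which docks secretory granules, had a 149 nt exon at 0.29 in WT and 0.18 in TKO, and at 0.13 to 0.20 after knock-down, called with HP1alpha alone (exact test, adjusted p = 0.0159, and 0.554 with the odds ratio set by exon length). The Exoc7 exon of 69 nt was called with HP1beta alone, at 0.13 in WT and 0.02 (exact test, adjusted p = 0.022, and 0.0815 by exon length). The Rab3ip exon was called with triple knock-down alone, at 1.00 and 0.89 (exact test, adjusted p = 0.000484). It was also lower in WT cells with HP1alpha (0.93, 7 skipping reads), HP1beta (0.93, 7) and HP1gamma knock-down (0.95, 3), short of the level threshold.

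Another 4 exons were called only in TKO cells with triple knock-down, and whether that differs from WT cells was not decided. Zelen's test did not include Tbc1d13. Its outcome is fixed where both untransfected libraries lack skipping reads, as for Rab7. Vps26a and Vps50 had 0 skipping reads in untransfected WT cells, so the test could say little about them. Vps26a, a core subunit of retromer, had a 76 nt exon at 0.99 in both untransfected libraries, 0.94 to 0.98 in WT knock-downs and 0.87 in TKO cells (157 inclusion, 6 skipping reads). Vps50, part of a tether for endosomal recycling, had a 122 nt exon at 0.99, 0.90 to 0.97 and 0.87. Rab7, the GTPase of late endosomes, had an 87 nt exon at 0.10 in WT and 0.23 in TKO, and at 0.03 to 0.06 in all 5 knock-down libraries. It had 0 skipping reads in the untransfected libraries and 61 to 143 in the knock-down libraries. In WT cells the Rab7 reads also passed the adjusted p, at 1.02e-17 with HP1gamma and 5.27e-16 with triple knock-down (Fisher's exact test). There the level difference of -0.05 missed the level threshold, so the lower level was not particular to TKO cells. Tbc1d13 had a 144 nt exon at 0.38 in TKO (211 and 218 reads) and 0.56 with triple knock-down (20 and 0), with an interval from 0.13 to 0.92 around the second value, which overlaps that of the first.

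**Figure D4:**
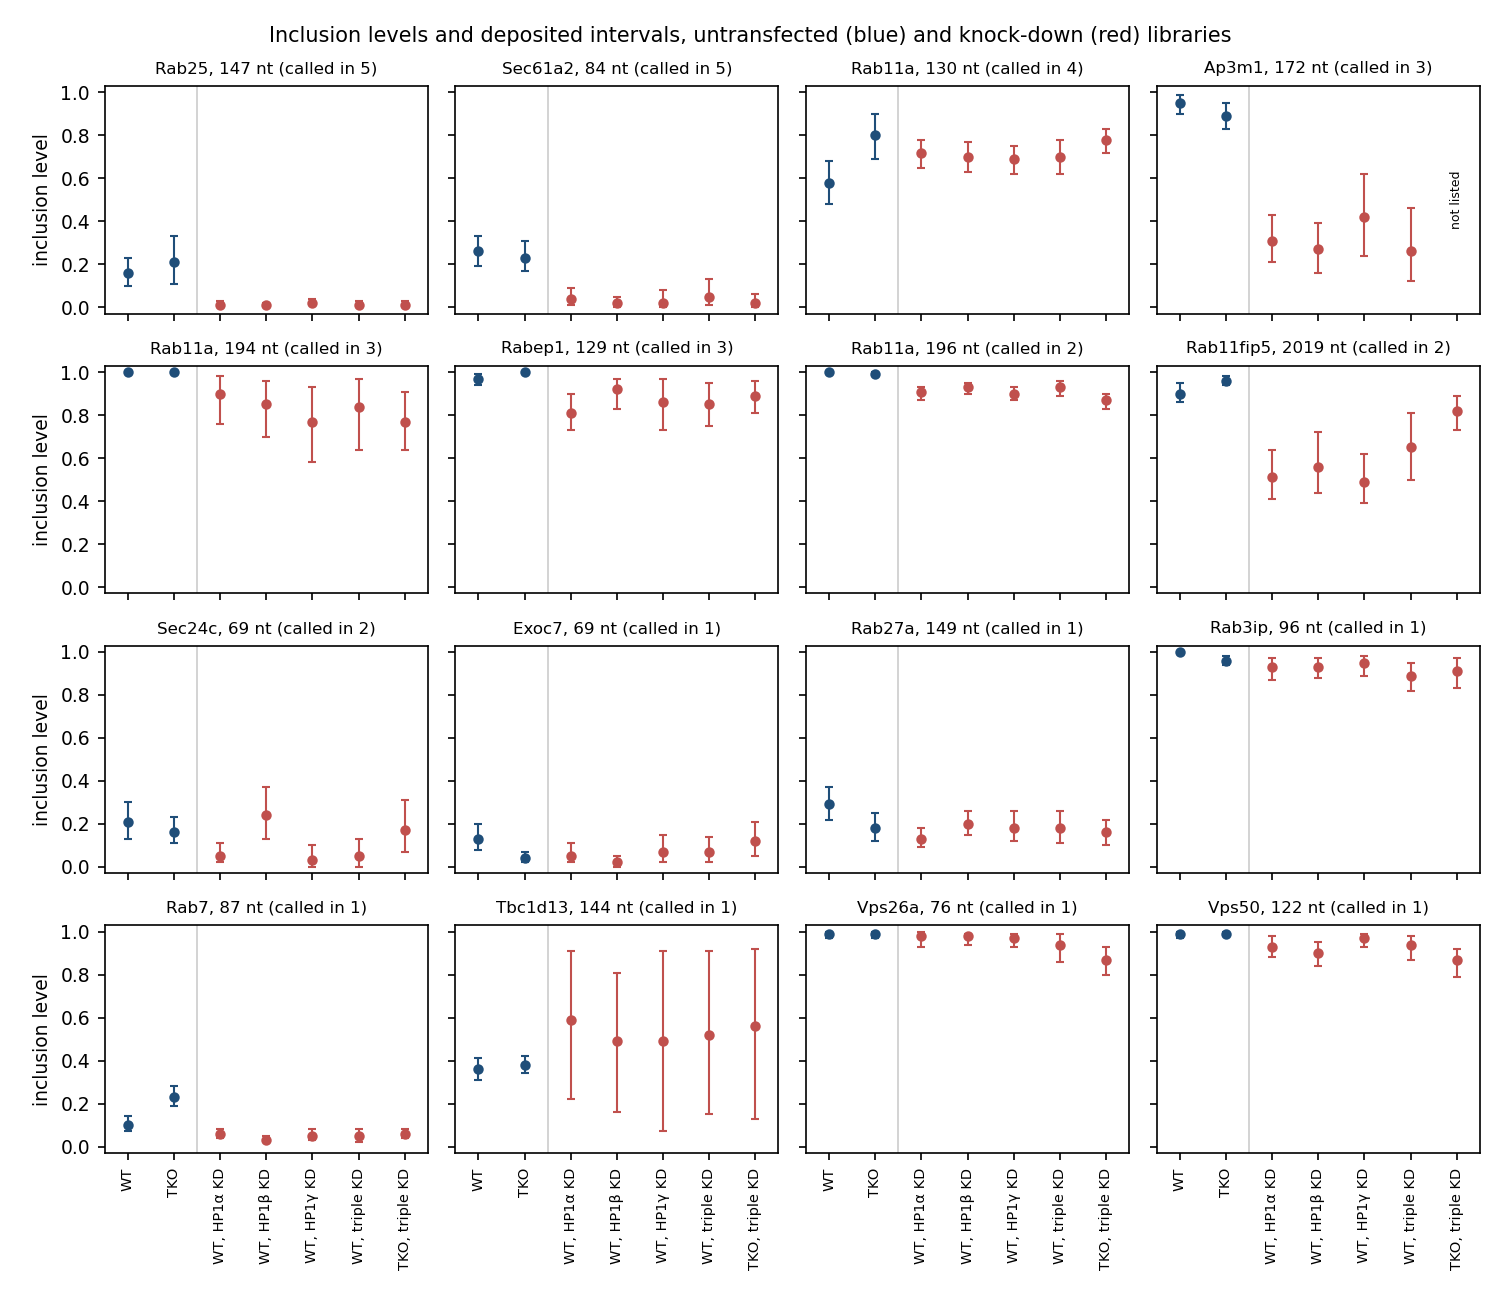
Inclusion level (vertical axis, fraction from 0 to 1) of the 16 trafficking exons called in at least 1 knock-down comparison, in the 2 untransfected (blue) and 5 knock-down (red) libraries, with the deposited intervals as bars. Rab25 and Sec61a2 are low in all red libraries, and Sec24c is low in 3 of 5.

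By role, no sorting nexin was called in any of the 5 comparisons, with 11 to 14 exons tested in each. Vps genes gave 2 calls, both in TKO cells, of 16 to 20 tested in each comparison. Exocyst genes gave 1 call over the 5 comparisons and adaptor genes 3, all of Ap3m1, with 8 to 10 exons of each role tested. Rab-numbered genes gave more. With HP1alpha, HP1beta and triple knock-down 1 was higher and 2 lower in each, of 20 to 24 tested. With HP1gamma 1 was higher and 4 lower of 22, and in TKO cells 5 were lower of 23. Sec genes had 1 or 2 lower in each comparison, of 12 to 15. Rab regulators had at most 1 higher and 1 lower, of 13 to 16. With so few exons a role, these counts can be read only beside the 11.2% to 12.3% of all events called. The difference between roles was not tested.

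The 4 knock-down libraries of WT cells were next compared with each other, which asks whether the HP1 proteins differ in effect at 1 read layout. In the 6 pairs, 0 of 89 to 107 trafficking exons were called, against 0 events in all in 2 pairs and 1 event in the others. That 1 event was 0.0171% of those tested for HP1beta against HP1alpha, 0.019% for HP1gamma against HP1beta, and for the triple knock-down 0.0214% against HP1alpha and 0.0217% against HP1gamma. Over the 6 pairs 6 of 579 tests of trafficking exons reached an unadjusted p under 0.05, and 43 differed in level by 0.1 or more. The same shares over all events were not computed for these pairs, so these counts show nothing particular to trafficking exons. The Sec24c exon, at 0.24 with HP1beta and 0.03 to 0.05 in the other WT knock-downs, was not called in the pairs of single knock-downs. HP1gamma against HP1beta gave p = 0.00146 and an adjusted p of 0.648 (Fisher's exact test). The pairs with the triple knock-down had too few reads to test this exon.

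Reads over an event also follow how much RNA a gene gives. For each gene the event with most reads was taken, and its RPM was compared between TKO and WT. In pooled bulk RNA, fewer cells of a kind and less RNA per cell cannot be told apart. Without transfection 4 of 97 trafficking genes were at least 2-fold higher in TKO (4.12%, against 3.91% of 4837 genes) and 2 were at least 2-fold lower (2.06%, against 3.04%). The median log2 ratio was 0.25 for trafficking genes and 0.12 for all genes, and with the latter set to 0 the counts were 2 and 2. With triple knock-down 2 of 71 were higher (2.82%, against 2.82%) and 2 lower (2.82%, against 6.51%), and the median of all genes was -0.11.

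Rab11fip5 was higher in TKO cells in both pairs. Its event was at 24.9 RPM in WT and 83.3 in TKO, a ratio of 3.34 (exact 95% interval 3.06 to 3.66). With triple knock-down the values were 32.5 and 104, a ratio of 3.19 (2.68 to 3.83), and the 3 single knock-downs of WT cells held 25.9 to 32.5. The 2 TKO libraries thus lay above all 5 WT libraries. Ap1m2, the epithelial form of the AP1 cargo-binding subunit, was lower in both. It had 86.8 RPM in WT and 34.5 in TKO (ratio 0.398, 0.367 to 0.43), and 145 and 49 with triple knock-down (0.337, 0.296 to 0.383). The 4 WT knock-down libraries held 117 to 145. These intervals cover counting error only.

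Other genes were past 2-fold in 1 pair. Rabep1 was at 99.7 RPM in WT and 211 in TKO (ratio 2.11), and at 56.9 and 97.3 with triple knock-down (1.71). Snx10, a sorting nexin of endosomes, was at 43.9 and 96.2 (2.19), and then at 45.1 and 61.1 (1.36). Rab30 was at 5.2 and 11.2, and Vps8, a subunit of an endosomal tether, at 137 and 48.8, and neither had values in both triple knock-down libraries. Ap1b1 was at 91.9 and 160 (1.75), then at 176 and 418 (2.37). Tbc1d24 was at 24.9 and 30.1, then at 35.7 and 15.8 (0.444). Over the 70 genes with values in all 4 libraries the log2 ratios of the 2 pairs had a Pearson correlation of 0.56, a description across genes that share library depth, and 38 of the 70 had the same sign.

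**Figure D5:**
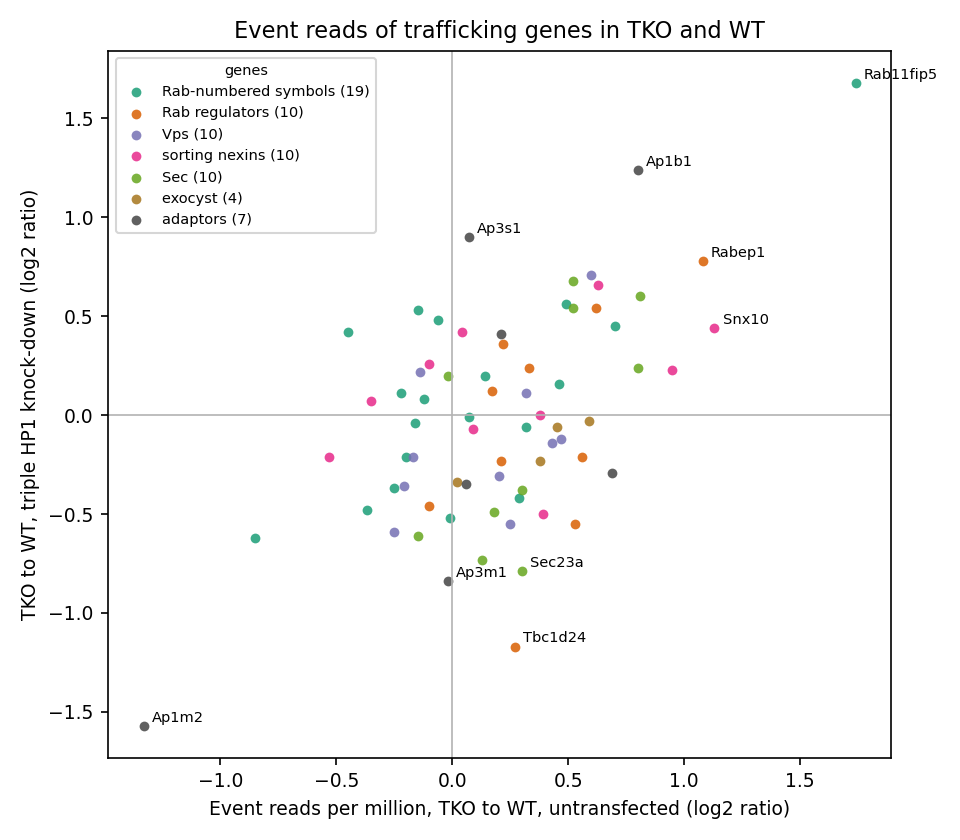
Log2 ratio of event reads (RPM), TKO to WT, in untransfected cells (horizontal axis) and under triple HP1 knock-down (vertical axis) for 70 trafficking genes, 1 point per gene, coloured by role. Rab11fip5 is far up on both axes and Ap1m2 far down on both.

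Other genes of the same pathways were read from a list of SNAREs, COPI and clathrin coats, Arf regulators, TRAPP, ESCRT and DENN proteins and golgins. In TKO against WT 6 of its 192 tested exons were higher (against 3.18% of all events), 1 was lower (against 1.39%) and 185 were not called, counts near those shares or below them. The median absolute difference was 0.01 over this list, against 0.02 over all events. Dnm2, the dynamin that pinches off endocytic vesicles, had a 12 nt exon with 0 inclusion reads beside 45 skipping reads in WT, and 64 beside 45 in TKO (levels 0.02 and 0.53, adjusted p = 9.53e-12, Fisher's exact test). Uso1, a golgin that tethers vesicles at the Golgi, had an 87 nt exon at 0.57 (491 and 78 reads) and 0.68 (486 and 0), with an adjusted p of 3.55e-20. The others were in Git2 (2 overlapping exons, 0.50 to 0.75 and 0.46 to 0.70), Golgb1, Acap2 and, with less inclusion in TKO, Numb. With triple knock-down in both lines 0 of 101 exons of this list were called, against 0.469% of all events. Against untransfected cells 0 to 3 of its 102 to 137 tested exons were higher (against 1.31% to 1.92% of all events) and 3 to 9 lower (against 9.37% to 10.9%), with median absolute differences of 0.04 or 0.05.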

How the data were processed

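The authors sequenced 14 RNA samples in 7 groups of 2 replicates. Per the submitters' processing notes reads were aligned with TopHat2 and Bowtie2 to mm10, with no versions named, and the source of the event models is not stated in the labels. The deposited summaries give 1 pooled value per group. Per the file headers they hold, for each skipped-exon event, the MISO inclusion level with its interval, as a fraction, and counts of reads by class: inclusion only, skipping only, both or neither. The lowest number of reads of a listed event was 100. The bisulfite and MNase samples were not analysed here.

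From these files, each event was placed in genes by their mm10 spans (the GRCm38 gene table), and inclusion-only and skipping-only reads of 2 libraries were compared by a two-sided Fisher's exact test. Events needed at least 20 such reads in each library. P-values were adjusted by Benjamini-Hochberg over all events tested, and calls needed an adjusted p of at most 0.05 and a level difference of at least 0.1. Zelen's exact test compared the TKO to WT odds ratios of the 2 read layouts and needed the adjusted p alone. Ratios of event reads have exact binomial 95% intervals, which cover counting error only. The code was tested on simulated data. Python 3.11.15 was used with numpy 2.4.6, scipy 1.17.1 and pandas 2.3.3.

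Exons named were all those called, in some roles the exon with most distinguishing reads, the very short exons of adaptor genes, and a few singled out after their values were seen. The members, the lists and the rule were chosen with earlier results of these data known. Alternatives were no read minimum (at least 1 read), intervals that must not overlap, an expected odds ratio set by exon length in 8 groups, 1 event per exon and, added after seeing the data, reads and level that must move in the same direction.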

Additional observations from a re-analysis of the deposited data

Results flagged for a closer look

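The Snx3 exon of 96 nt was marked because the TKO to WT difference in its reads was not the same in untransfected and triple knock-down cells (adjusted p = 0.00239, Zelen's exact test over 4344 events). In the first pair skipping reads went from 72 in WT to 0 in TKO, and in the second they were 5 and 6. Each pair is 1 pooled library against another.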

How the results depend on the processing

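With no read minimum 1 trafficking exon was called in TKO against WT, in Sec22c, against 0. In triple knock-down against WT the count of 5 became 9 with no read minimum, 3 where intervals had also to be apart and 3 with the odds ratio set by exon length. In HP1gamma knock-down against WT the count of 8 became 5 with the odds ratio set by exon length. The other counts stayed within 1.5 times of the values given. Of 36 single calls, 30 held with intervals apart, 27 with the odds ratio set by exon length and 32 where reads and level had to move together, the last a choice made after seeing the data. The 4 lost under that choice were the Rab11a exon of 130 nt. No paired analysis was possible because the authors pooled the replicates, and for the same reason no replicate could be left out. Fewer exons could be tested in the knock-down libraries: 90 to 113 trafficking exons had 20 or more distinguishing reads there, against 156 in WT.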

Other observations

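In Tbc1d9b and Vps29, picked after their values were seen, exons of 1 gene stood at opposite ends. In Tbc1d9b, a regulator that switches Rabs off, the 119 nt exon was at 1.00 in WT and in TKO, the 57 nt exon at 0.82 and 0.90, the 326 nt exon at 0.06 and 0.20 and the 51 nt exon at 0.05 and 0.02. In Vps29, a core subunit of retromer, the 236 nt exon was at 0.96 to 1.00 in the 7 libraries, with 0 skipping reads in both untransfected libraries and 12 to 33 in the knock-down libraries. Its exons of 12 nt and 46 nt were at 0.00 or 0.01 in all 7. The most deeply read exon of Sec13, a coat protein of the endoplasmic reticulum, was at 0.97 in WT, 0.94 in TKO and 0.98 or 0.99 in the knock-down libraries. It had 0 skipping reads in WT and in TKO, beside 614 and 992 inclusion reads. Rab5c, a Rab of early endosomes, had a 150 nt exon with 0 to 2 inclusion reads beside 169 to 477 skipping reads.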
